A study of Mus musculus with 20 samples.

Results

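Clone M1, a mesenchymal clone of the mouse mammary tumour line Py2T, was compared with Py2T LT, the same line kept in TGF-beta. Gene levels were read as RPKM, reads per kilobase of transcript scaled to sequencing depth, from RNA sequencing of total RNA. Of the 20 libraries of the series, 4 belong to this comparison, 2 of M1 and 2 of Py2T LT, and 4 more, 2 each of the clones M2 and M3, were used to say where M1 differed from the other clones. The 11717 genes of 19311 that reached 1 RPKM in at least 2 of these 8 libraries were tested. All cells derive from a tumour of the MMTV-PyMT mouse, in which a mammary tumour virus promoter drives the polyoma middle T oncogene. Py2T LT cells had more than 10 days of TGF-beta 1 at 2 ng/ml, with new medium at 3-day intervals. M1, M2 and M3 are each 1 clone, so a difference between M1 and Py2T LT can belong to the clone, and whether TGF-beta was added to the clones is not in the labels. The 2 libraries of a group come from 2 independent experiments. By its title, the series concerns histone deacetylases, Mbd3/NuRD and Tet2 in switches between an epithelial and a mesenchymal phenotype.

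TGF-beta is a secreted ligand that signals through a pair of serine/threonine kinase receptors to Smad2 and Smad3, which enter the nucleus with Smad4 and switch on targets such as Ccn2. In mammary epithelium, long exposure drives the epithelial-mesenchymal transition: cells give up E-cadherin junctions, take up N-cadherin, vimentin and fibronectin, and become motile. BMPs, relatives of TGF-beta, signal through other Smads to the Id genes.

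A difference is given as log2(RPKM + 0.5) in M1 minus that in Py2T LT, with its standard error, so that the change of genes near 0 is understated. Tests are limma's on all 8 libraries, p-values are adjusted by the Benjamini-Hochberg method over all 11717 genes, and a gene "rose" or "fell" where the adjusted p was under 0.05. By that rule 7129 genes differed, 60.8% of those tested: 3596 were higher in M1 (30.7%) and 3533 were lower (30.2%). At least 2-fold differences were seen in 2433 of them, 1333 higher and 1100 lower, and at least 8-fold ones in 143 higher and 209 lower genes. The median difference over all tested genes was -0.01. The counts of each gene list below stand against this background, in which most genes passed. A list with shares near 30.7% and 30.2% moved as tested genes did in general, so its counts say nothing particular about its members. Genes that reached 1 RPKM only in the 2 Py2T LT libraries, or only in the 2 M1 libraries, could differ in 1 direction only. Their direction, and their part in the counts and bounds below, was built in by the filter. All 7129 genes that differed had both M1 libraries beyond both Py2T LT libraries, as did 9147 of the 11717 tested. A statement below that the libraries of a gene did not overlap therefore restates its call and adds no support. The lists hold 789 distinct genes, of which 768 have values here and 558 reached the level for testing. No list's median moved when members at 0 in 1 group were set to their bound of 3 reads. Depth, estimated from the steps of low values, was 14874000 to 18193800 reads in the 8 libraries. The M1 replicates differed from each other by a median of 0.205 on the log2 scale, against 0.110 in Py2T LT. Their difference followed gene length: replicate 1 minus replicate 2 had a median of 0.27 in the 20% of genes with the shortest exons and -0.24 in the 20% with the longest, and the M1 minus Py2T LT medians in the same genes were 0.27 and -0.17. With that trend removed, an alternative chosen after seeing the data, 7485 genes passed. Bulk RNA cannot tell fewer cells of a type apart from less RNA per cell.

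Markers of haematopoietic, endothelial and adipocyte cells were near 0 in all 4 libraries. None of 13 haematopoietic markers reached the level for testing, 5 were at 0 in both cell types, and their summed RPKM was 0.527 and 0.422 in M1, against 1.60 and 1.93 in Py2T LT. Endothelial markers summed to 0.828 and 0.853 RPKM in M1, against 3.81 and 3.67 RPKM in Py2T LT, and adipocyte markers to 0.471 and 0.468 RPKM in M1, against 1.81 and 2.33 RPKM in Py2T LT. Fibroblast markers summed to 5436 and 4028 RPKM in M1, against 990.2 and 1322 RPKM in Py2T LT, most of it S100a4; 6 of 15 were tested, and Lum, Dpt and Thy1 had no read in these 4 libraries. The part of these markers in the results was not tested. Epithelial and mesenchymal genes were both expressed: keratin 18 had 1427 and 928 RPKM in M1, against 799 and 779.5 RPKM in Py2T LT, and vimentin had 384 and 358 RPKM in M1, against 1397 and 1379 RPKM in Py2T LT.

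The epithelial junction genes of M1 did not follow 1 direction. Of 27 tested genes for epithelial adhesion and junctions, 17 rose and 7 fell in M1, with a median difference of 0.66. The largest rise of any gene in the table belonged to Cldn6, a claudin of the tight junction found in embryonic epithelia. Cldn6 had 178 and 173 RPKM in M1, against 0.386 and 0.223 RPKM in Py2T LT, a difference of 7.75 ± 0.12 (limma, adjusted p = 4.32e-09). Its neighbour Cldn9, another claudin, had 77.0 and 67.4 RPKM in M1, against 0.726 and 0.658 RPKM in Py2T LT (5.90 ± 0.11). Both genes were above 67 RPKM in both M1 libraries and under 1 RPKM in both Py2T LT libraries, and they lie next to each other on chromosome 17, at chr17:23679348-23682446 and chr17:23682584-23684026 of GRCm38. Spint1 and Spint2, membrane-bound inhibitors of epithelial serine proteases, rose as well. Spint1 had 9.01 and 5.82 RPKM in M1, against 0.281 and 0.197 RPKM in Py2T LT (3.37 ± 0.18), and Spint2 had 47.1 and 33.5 RPKM in M1, against 5.02 and 2.68 RPKM in Py2T LT (3.23 ± 0.26).

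Other members moved the opposite way. Cldn4, a claudin of many adult epithelia, had 3.01 and 2.41 RPKM in M1, against 63.8 and 47.8 RPKM in Py2T LT, a difference of -4.16 ± 0.16 (limma, adjusted p = 1.37e-07). Tjp1, the scaffold ZO-1 of the tight junction, had 17.5 and 30.0 RPKM in M1, against 56.7 and 55.2 RPKM in Py2T LT (-1.30 ± 0.21), and Pkp2, a plaque protein of desmosomes, had 14.6 and 10.7 RPKM in M1, against 24.2 and 26.7 RPKM in Py2T LT (-1.03 ± 0.14). The M1 and Py2T LT libraries did not overlap for any of these 3 genes. E-cadherin itself, Cdh1, was low in both cell types, at 1.05 and 1.11 RPKM in M1, against 2.32 and 1.56 RPKM in Py2T LT. Its difference of -0.63 ± 0.20 passed the test (limma, adjusted p = 0.0217), but not without M1 replicate 1 (adjusted p = 0.0673) or without Py2T LT replicate 1 (-0.41, adjusted p = 0.166). Epcam, an epithelial adhesion molecule, had 11.7 and 10.4 RPKM in M1, against 7.99 and 5.42 RPKM in Py2T LT (0.67 ± 0.20, adjusted p = 0.0175). That call was lost without either M1 library (adjusted p = 0.0935 without replicate 1 and 0.0528 without replicate 2) and without Py2T LT replicate 2 (adjusted p = 0.15).

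The promoters of Cldn6, Cldn4 and Epcam are shown because these genes carry the contrast within the list and because each holds the E-box read by Snail and Zeb repressors. Each line gives the 250 bases before a start that RefSeq's promoter table lists for the gene (GRCm38.p6), 5′ to 3′ on the gene's strand, with CAGGTG or its complement CACCTG in capitals; neither overlaps another motif searched for here. The start used for Cldn6 lies a few bases inside the gene range given above.
Cldn6 (chr17:23679115-23679364, plus strand): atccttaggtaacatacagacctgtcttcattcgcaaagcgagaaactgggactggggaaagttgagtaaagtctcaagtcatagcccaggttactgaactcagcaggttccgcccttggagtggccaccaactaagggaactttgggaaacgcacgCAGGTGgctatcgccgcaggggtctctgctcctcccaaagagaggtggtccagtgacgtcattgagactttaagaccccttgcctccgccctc
Cldn4 (chr5:134946935-134947184, minus strand): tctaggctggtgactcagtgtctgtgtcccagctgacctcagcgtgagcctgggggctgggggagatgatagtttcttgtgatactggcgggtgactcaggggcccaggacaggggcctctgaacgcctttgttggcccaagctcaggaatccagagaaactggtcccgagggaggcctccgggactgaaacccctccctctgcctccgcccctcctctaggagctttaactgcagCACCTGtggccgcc
Epcam (chr17:87635729-87635978, plus strand): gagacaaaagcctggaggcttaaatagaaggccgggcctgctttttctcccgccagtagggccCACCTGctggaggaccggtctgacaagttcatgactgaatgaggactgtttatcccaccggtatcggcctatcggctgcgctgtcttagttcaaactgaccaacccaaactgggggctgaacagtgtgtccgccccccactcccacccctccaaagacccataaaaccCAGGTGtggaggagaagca
This E-box occurs on either strand in 17.2% of 32851 RefSeq promoters of the same length and in 17.6% of the 9080 tested genes with a promoter in the table. Of the 17 list members with a promoter, 8 hold it: 6 of them rose in M1 (Epcam, Cldn6, Cldn7, Pard6b, Spint2 and Lsr) and 2 fell (Cldn4 and F11r). The letters are present in the most raised and in the most lowered member of the list. Whether they bear on the direction was not tested.

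**Figure D1:**
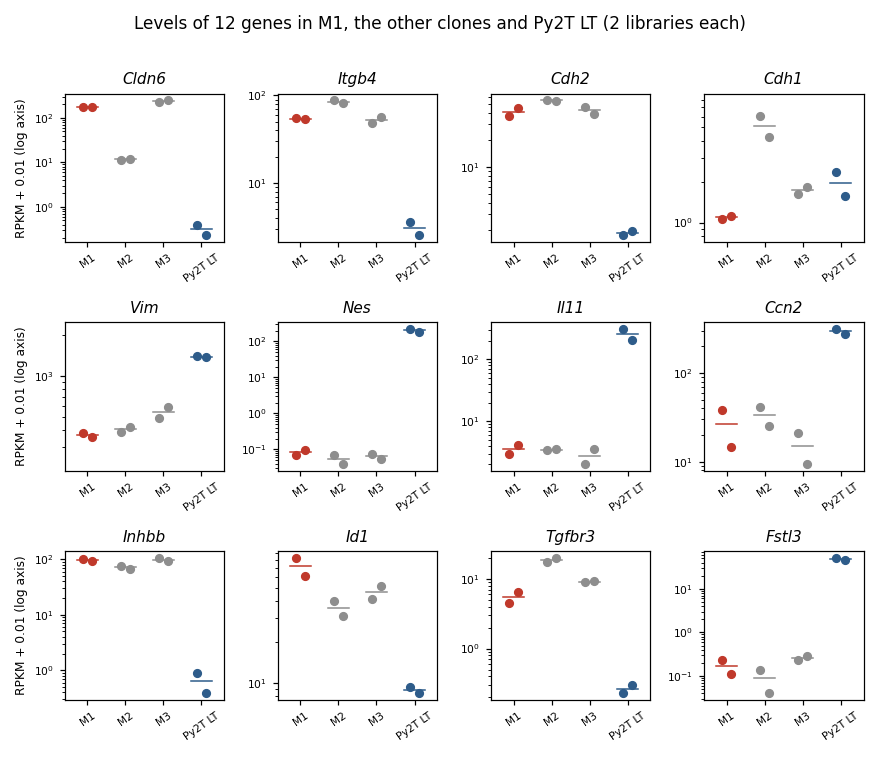
RPKM + 0.01 on a log axis for 12 genes in the libraries of M1, M2, M3 and Py2T LT; points are libraries and lines are group means. Both M1 libraries of Cldn6 (178 and 173 RPKM) stand above both Py2T LT libraries (0.386 and 0.223 RPKM), while Nes, Il11 and Fstl3 stand the other way round.

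Regulators of the epithelial state moved in both directions, as did all tested genes (30.7% rose and 30.2% fell). Of 10 tested epithelial transcription and splicing regulators, 4 rose and 2 fell, with a median of 0.25. Gata3, the luminal mammary transcription factor, had 21.0 and 22.5 RPKM in M1, against 8.60 and 9.25 RPKM in Py2T LT, a difference of 1.21 ± 0.11 (limma, adjusted p = 2.19e-05). It was above Py2T LT in both M1 libraries. Esrp1, which sets epithelial splice forms, had 0.156 and 0.119 RPKM in M1, against 1.13 and 1.14 RPKM in Py2T LT (-1.38 ± 0.16, adjusted p = 0.000117). The fall of Grhl2, an activator of junction genes, was small (1.10 and 1.32 RPKM in M1, against 1.94 and 1.64 RPKM in Py2T LT; -0.45 ± 0.16, adjusted p = 0.0357) and did not pass without M1 replicate 1 (adjusted p = 0.139), Py2T LT replicate 1 (adjusted p = 0.184) or Py2T LT replicate 2 (adjusted p = 0.0601), which leaves 1 lower member. Nor did it pass with the length trend removed (-0.31, adjusted p = 0.0961).

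Among 7 tested keratins and other intermediate filament genes, 2 rose and 3 fell, with a median of -0.31. Krt7, a keratin of simple epithelia, had 1082 and 887 RPKM in M1, against 489.6 and 456 RPKM in Py2T LT (1.02 ± 0.12). Krt80 had 28.1 and 33.0 RPKM in M1, against 66.2 and 55.6 RPKM in Py2T LT (-1.02 ± 0.12). The difference of Krt18 was 0.51 ± 0.17 (adjusted p = 0.0323), and its call was lost without M1 replicate 1 (adjusted p = 0.0649) or without either Py2T LT library (adjusted p = 0.103 and 0.124), leaving 1 higher member. With the length trend removed it was 0.22 (adjusted p = 0.101). Nes, which encodes the intermediate filament nestin of progenitor cells, had the largest fall of any named gene on this scale: it had 0.0606 and 0.0878 RPKM in M1, against 218 and 185 RPKM in Py2T LT, a difference of -8.47 ± 0.14 (limma, adjusted p = 4.32e-09). Vimentin, whose values are given above, fell by 1.94 ± 0.11 on the log2 scale (limma, adjusted p = 1.39e-06) and stayed above 350 RPKM in both M1 libraries. Of the mammary markers, 4 luminal ones rose and 3 of 9 fell, among them Esr1, the oestrogen receptor, with 2.13 and 2.71 RPKM in M1, against 0.299 and 0.242 RPKM in Py2T LT (1.89 ± 0.15), and Aldh1a3, an aldehyde dehydrogenase of luminal progenitors, with 0 and 0.0395 RPKM in M1, against 8.15 and 8.18 RPKM in Py2T LT (-4.08 ± 0.12). Of 6 basal markers 3 rose and 2 fell; Jag1, a Notch ligand, had 3.29 and 2.80 RPKM in M1, against 82.7 and 74.5 RPKM in Py2T LT (-4.51 ± 0.16).

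Mesenchymal genes also moved in both directions, where 30.7% of all tested genes rose and 30.2% fell. Of 15 tested mesenchymal adhesion and matrix genes, 6 rose and 8 fell in M1, with a median of -0.93. Cdh2, which encodes N-cadherin, had 36.4 and 44.7 RPKM in M1, against 1.74 and 1.94 RPKM in Py2T LT, a difference of 4.10 ± 0.14 (limma, adjusted p = 5.20e-08). N-cadherin was thus under 2 RPKM in the TGF-beta-treated cells and above 36 RPKM in both M1 libraries. S100a4, a calcium-binding protein of motile and fibroblastic cells, had 5301 and 3901 RPKM in M1, against 902 and 1237 RPKM in Py2T LT (2.07 ± 0.18), and Sparc, a matrix glycoprotein, had 293 and 266 RPKM in M1, against 76.8 and 81.2 RPKM in Py2T LT (1.78 ± 0.11).

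The fallen members included secreted matrix and its partners. Igfbp3, a binding protein of insulin-like growth factors, had 2.38 and 2.73 RPKM in M1, against 146 and 149.9 RPKM in Py2T LT (-5.64 ± 0.18, adjusted p = 4.29e-08). Efemp2, which helps assemble elastic fibres, had 0.773 and 0.912 RPKM in M1, against 54.2 and 53.7 RPKM in Py2T LT (-5.37 ± 0.17). Both genes were under 3 RPKM in each M1 library and above 53 RPKM in each Py2T LT library. Tnc, the matrix protein tenascin-C, had 58.6 and 83.8 RPKM in M1, against 758 and 757 RPKM in Py2T LT (-3.46 ± 0.22), and Fn1, fibronectin, had 533 and 786 RPKM in M1, against 1561 and 1469 RPKM in Py2T LT (-1.26 ± 0.17). Of 6 fibroblast markers 3 rose and 3 fell: Pdgfrb, a PDGF receptor, had 14.7 and 14.2 RPKM in M1, against 8.11 and 8.12 RPKM in Py2T LT (0.76 ± 0.13), and Col1a1, a chain of collagen I, had 0.263 and 0.286 RPKM in M1, against 5.21 and 4.59 RPKM in Py2T LT (-2.82 ± 0.15).

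Among transcription factors known for driving the transition, 9 of 21 were higher and 8 lower, with a median of 0.05. Of all tested genes 30.7% were higher and 30.2% lower. Twist1, a basic helix-loop-helix factor, had 44.3 and 37.3 RPKM in M1, against 10.1 and 9.39 RPKM in Py2T LT (1.97 ± 0.12, adjusted p = 1.88e-06), whereas its paralogue Twist2 had 2.03 and 2.00 RPKM in M1, against 19.9 and 17.8 RPKM in Py2T LT (-2.97 ± 0.15). Prrx1, a homeobox factor, had 28.4 and 37.2 RPKM in M1, against 7.10 and 8.55 RPKM in Py2T LT (1.96 ± 0.17). The 2 M1 libraries lay beyond both Py2T LT libraries for each of the 3 genes. Forkhead factors moved furthest: Foxf1 had 22.02 and 20.9 RPKM in M1, against 0.240 and 0.253 RPKM in Py2T LT (4.85 ± 0.11, adjusted p = 5.81e-09), and Foxc2 had no read in either M1 library, against 22.7 and 20.5 RPKM in Py2T LT. Taking 3 reads per library as the limit that a count of 0 allows, Foxc2 was at least 304-fold lower in M1. Zeb1, a zinc finger repressor of Cdh1, had 7.50 and 11.6 RPKM in M1, against 27.8 and 29.2 RPKM in Py2T LT (-1.59 ± 0.18), and Snai2 had 2.31 and 1.64 RPKM in M1, against 9.03 and 7.78 RPKM in Py2T LT (-1.89 ± 0.20). Snai1, another repressor of Cdh1, had 21.7 and 22.3 RPKM in M1, against 33.0 and 32.2 RPKM in Py2T LT (-0.59 ± 0.20, adjusted p = 0.0303). The Snai1 call was lost when any of the 4 libraries was left out, with an adjusted p between 0.0855 (without M1 replicate 2) and 0.141 (without M1 replicate 1).

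**Figure D2:**
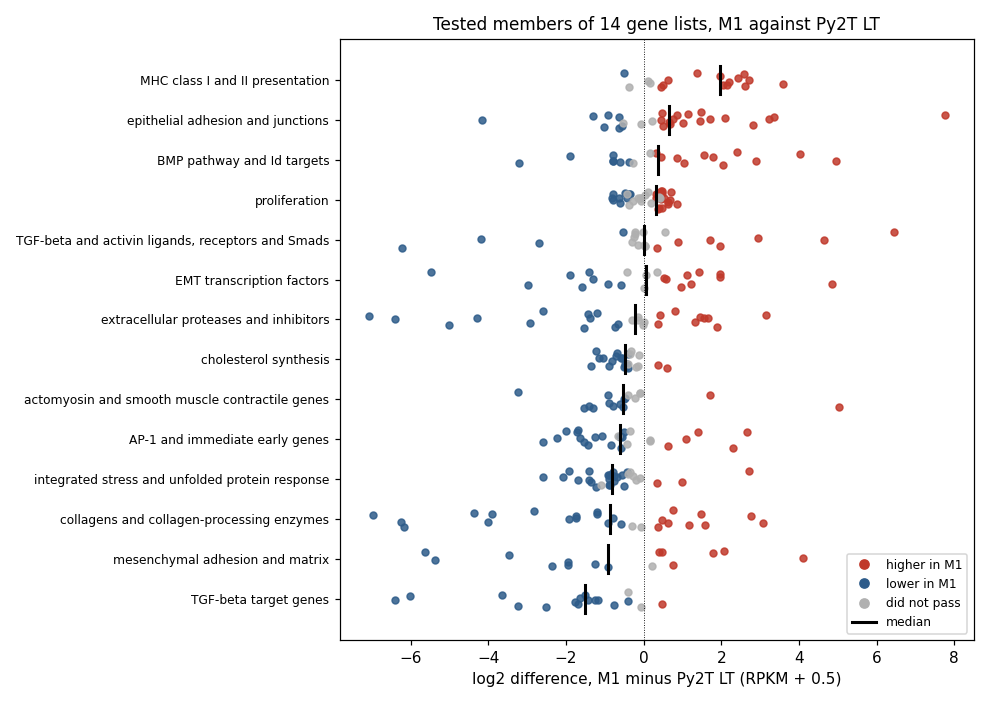
Log2 difference of each tested member of 14 gene lists, M1 minus Py2T LT; each point is 1 gene, coloured by whether it was higher, lower or did not pass, and the black bar is the list's median. Among these 14 lists TGF-beta target genes have the lowest median (-1.50) and MHC presentation genes the highest (1.97), with all tested genes at -0.01.

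Known targets of TGF-beta were mostly lower in M1. Of 17 tested target genes, 14 fell and 1 rose, with a median of -1.50, against 30.2% and 30.7% of all tested genes. Il11, a cytokine of the interleukin-6 family, had 2.99 and 4.09 RPKM in M1, against 307 and 208 RPKM in Py2T LT, a difference of -6.01 ± 0.26 (limma, adjusted p = 5.60e-07). Each M1 library was more than 50 times below either Py2T LT library. Ccn2, connective tissue growth factor, had 38.5 and 14.6 RPKM in M1, against 312 and 278 RPKM in Py2T LT (-3.64 ± 0.61, adjusted p = 0.00482). Its M1 libraries were unlike each other, so that the difference was -4.31 without M1 replicate 1 and -2.98 without M1 replicate 2. Among the further targets, the differences were -3.23 for Tgfbi, -2.51 for Ccn1, -1.78 for Skil and -0.75 for Smad7, the last 2 being inhibitors that the pathway induces against itself. The Ccn1 difference was -3.13 without M1 replicate 1 and -1.90 without M1 replicate 2 (adjusted p = 0.0543), and its adjusted p was 0.0552 without Py2T LT replicate 1. The single riser was Ski, a Smad co-repressor, with 41.7 and 45.7 RPKM in M1, against 33.2 and 28.01 RPKM in Py2T LT (0.47 ± 0.11, adjusted p = 0.00612); it did not pass without Py2T LT replicate 2 (adjusted p = 0.0646).

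The list of TGF-beta and activin pathway genes did not move as 1 group. Of 21 tested ligands, receptors, Smads and their binding proteins, 7 rose, 4 fell and 10 did not pass, with a median of 0.02. Over all tested genes 30.7% rose and 30.2% fell. The receptors Tgfbr1, Tgfbr2 and Tgfbr3 were among the rises. Tgfbr3, the co-receptor betaglycan, had 4.48 and 6.45 RPKM in M1, against 0.221 and 0.286 RPKM in Py2T LT (2.94 ± 0.17, adjusted p = 1.63e-06). The kinases Tgfbr1 (0.88) and Tgfbr2 (1.72) and the co-receptor Eng (1.97) rose too. Smad2, Smad3 and Smad4 did not pass the test; their differences were 0.02 ± 0.13, 0.02 ± 0.15 and 0.04 ± 0.09. Without M1 replicate 2 the number of lower members became 7 in place of 4.

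Activin genes differed by subunit. Inhbb, the activin beta B subunit, had 102 and 92.8 RPKM in M1, against 0.889 and 0.381 RPKM in Py2T LT (6.44 ± 0.19, adjusted p = 4.16e-08), while Inhba, the beta A subunit, had 8.74 and 18.2 RPKM in M1, against 228 and 241 RPKM in Py2T LT (-4.19 ± 0.38, adjusted p = 0.000239). The activin inhibitors differed likewise: Fst, follistatin, had 17.8 and 16.8 RPKM in M1, against 0.264 and 0.137 RPKM in Py2T LT (4.65 ± 0.15), and Fstl3, a follistatin relative, had 0.222 and 0.103 RPKM in M1, against 50.5 and 45.2 RPKM in Py2T LT (-6.21 ± 0.15). For none of the 4 genes did the M1 and Py2T LT libraries overlap. Lrrc32, also called GARP, which holds latent TGF-beta at the cell surface, had no read in M1, against 2.47 and 3.00 RPKM in Py2T LT, and was at least 66.2-fold lower.

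BMP genes and their Id targets leaned the other way, with 11 of 20 higher, 7 lower and a median of 0.38. Id1, an inhibitor of basic helix-loop-helix factors, had 82.1 and 60.8 RPKM in M1, against 9.28 and 8.43 RPKM in Py2T LT (2.89 ± 0.18, adjusted p = 1.89e-06). The other Id genes also rose, Id2 by 2.40, Id3 by 1.79 and Id4 by 2.05. Bmp4, a ligand, had 11.3 and 7.59 RPKM in M1, against 0.117 and 0.0560 RPKM in Py2T LT (4.04 ± 0.18), and Grem1, a secreted antagonist of that ligand, had 13.0 and 22.9 RPKM in M1, against 0.0710 and 0.0682 RPKM in Py2T LT (4.95 ± 0.24). Both the ligand and its antagonist were thus under 0.12 RPKM in Py2T LT and above 7 RPKM in M1. Bmp6 had 0 and 0.0558 RPKM in M1, against 5.12 and 3.57 RPKM in Py2T LT (-3.20 ± 0.17), and Bmp2 had no read in M1, against 1.26 and 1.41 RPKM in Py2T LT, at least 24.5-fold lower. Bmpr1a, a type I BMP receptor, had 19.9 and 25.9 RPKM in M1, against 36.4 and 40.9 RPKM in Py2T LT (-0.79 ± 0.14).

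Collagen genes were split by chain. Of 26 tested collagens and collagen-processing enzymes, 15 fell and 9 rose in M1, with a median of -0.86. Col4a1, a basement membrane chain, had no read in either M1 library, against 65.0 and 58.5 RPKM in Py2T LT, and was at least 2381-fold lower. Col4a2, transcribed head to head with Col4a1 on chromosome 8, had 0.0193 and 0 RPKM in M1, against 39.1 and 36.4 RPKM in Py2T LT (-6.25 ± 0.12, adjusted p = 4.62e-09). Col4a5, another collagen IV chain, went the other way, with 16.9 and 20.5 RPKM in M1, against 1.95 and 2.55 RPKM in Py2T LT (2.78 ± 0.15). Col5a3 had 0.0813 and 0.0884 RPKM in M1, against 44.2 and 38.1 RPKM in Py2T LT (-6.17 ± 0.14). The lysyl oxidases that crosslink collagen were divided: Loxl3 had 43.0 and 39.9 RPKM in M1, against 4.10 and 4.71 RPKM in Py2T LT (3.07 ± 0.11), Loxl4 had 29.4 and 32.0 RPKM in M1, against 9.77 and 9.61 RPKM in Py2T LT (1.58 ± 0.11), and Loxl2 had no read in M1, against 7.10 and 7.83 RPKM in Py2T LT, and was at least 208-fold lower.

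Surface receptors for that matrix differed in kind. Of 14 tested integrin subunits 7 rose and 5 fell, with a median of 0.39. Itgb4 and Itga6, which pair as the laminin receptor of hemidesmosomes, both rose. Itgb4 had 54.7 and 54.2 RPKM in M1, against 3.58 and 2.54 RPKM in Py2T LT (3.93 ± 0.14, adjusted p = 7.97e-08), and Itga6 had 75.3 and 84.7 RPKM in M1, against 28.7 and 27.3 RPKM in Py2T LT (1.46 ± 0.15). Itgb3, part of the vitronectin receptor, had 0.460 and 0.663 RPKM in M1, against 30.7 and 30.2 RPKM in Py2T LT (-4.90 ± 0.15), and Itga2, part of a collagen receptor, had 1.35 and 3.09 RPKM in M1, against 41.8 and 41.9 RPKM in Py2T LT (-4.07 ± 0.32). Every one of these 4 genes had both M1 libraries on the same side of both Py2T LT libraries. Contractile genes mostly fell, with 11 of 17 tested lower, 2 higher and a median of -0.53. Myl9, a myosin light chain, had 0.514 and 0.124 RPKM in M1, against 5.64 and 8.41 RPKM in Py2T LT (-3.24 ± 0.29), and Zyx, zyxin of focal adhesions, had 112 and 103 RPKM in M1, against 316 and 246 RPKM in Py2T LT (-1.41 ± 0.13). Tpm2, a tropomyosin, ran against the list with 49.6 and 37.2 RPKM in M1, against 0.717 and 0.890 RPKM in Py2T LT (5.03 ± 0.15).

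Extracellular proteases and their inhibitors included 9 higher and 12 lower genes of 26 tested, with a median of -0.23. Mmp9, gelatinase B, had 0.838 and 0.741 RPKM in M1, against 49.3 and 33.5 RPKM in Py2T LT (-5.02 ± 0.18, adjusted p = 8.41e-08), and Mmp3, stromelysin-1, had 59.8 and 41.8 RPKM in M1, against 6.21 and 4.04 RPKM in Py2T LT (3.16 ± 0.23). The gelatinase was lower in both M1 libraries and the stromelysin higher, with no overlap. Serpinb2, the plasminogen activator inhibitor PAI-2, had 0.0605 and 0.0985 RPKM in M1, against 82.7 and 71.5 RPKM in Py2T LT (-7.08 ± 0.14). Plat and Plau, the plasminogen activators, fell as well, by differences of -4.30 and -2.59. Tfpi2, a serine protease inhibitor, had no read in M1, against 139 and 129 RPKM in Py2T LT, at least 1206-fold lower.

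Growth factor and Wnt genes moved in both directions. Of 34 tested receptor tyrosine kinases and ligands 8 rose, 16 fell and 10 did not pass, with a median of -0.28, against 30.7% rises and 30.2% falls over all tested genes. Egfr, the EGF receptor, had 0.865 and 1.17 RPKM in M1, against 16.0 and 14.95 RPKM in Py2T LT (-3.43 ± 0.15, adjusted p = 2.60e-07), and Fgf2, a fibroblast growth factor, had 0 and 0.0967 RPKM in M1, against 23.3 and 19.1 RPKM in Py2T LT (-5.32 ± 0.15). Gas6 and its receptor Mertk rose together: Gas6 had 6.59 and 4.72 RPKM in M1, against 0.0449 and 0 RPKM in Py2T LT (3.52 ± 0.17), and Mertk had 1.55 and 1.32 RPKM in M1, against 0.0818 and 0.110 RPKM in Py2T LT (1.68 ± 0.15). Of 27 tested Wnt genes 7 rose and 14 fell, with a median of -0.38. Lef1, a DNA-binding partner of beta-catenin, had 0.0168 and 0.0182 RPKM in M1, against 20.2 and 20.5 RPKM in Py2T LT (-5.35 ± 0.12), and Wnt5a, a ligand of noncanonical signalling, had 1.44 and 1.74 RPKM in M1, against 40.4 and 41.1 RPKM in Py2T LT (-4.34 ± 0.17). Wnt10a, a ligand, had 25.6 and 22.5 RPKM in M1, against 1.69 and 1.25 RPKM in Py2T LT (3.61 ± 0.17), and Notum, which inactivates Wnt ligands, had 11.1 and 9.92 RPKM in M1, against 0.202 and 0.360 RPKM in Py2T LT (3.80 ± 0.19).

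Cell cycle inhibitors of the Ink4 locus had almost no signal in M1. Cdkn2a, which encodes p16Ink4a and Arf, at chr4:89274473-89294619 of GRCm38, had no read in either M1 library, against 65.5 and 53.5 RPKM in Py2T LT, and was at least 360-fold lower. Cdkn2b, which encodes p15Ink4b and lies next to it, had 0 and 0.0483 RPKM in M1, against 45.1 and 47.9 RPKM in Py2T LT (-6.51 ± 0.13, adjusted p = 4.62e-09). The tested genes around these 2 differed in signal. Mtap, the tested neighbour on one side, had 78.6 and 73.6 RPKM in M1, against 93.2 and 96.8 RPKM in Py2T LT (-0.35 ± 0.09, a call lost without Py2T LT replicate 2, adjusted p = 0.0575), and Dmrta1, the tested neighbour on the other, had 0.0304 and 0 RPKM in M1, against 2.43 and 2.21 RPKM in Py2T LT (-2.47 ± 0.13). Tusc1, further along, had no read in M1 and 3.54 and 4.75 RPKM in Py2T LT. Tusc1 had no read in M2 or M3 either, where Cdkn2a, Cdkn2b and Dmrta1 had at most 0.0533 RPKM. These genes reached 1 RPKM only in Py2T LT, so the filter fixed their direction. Gm12669, a numbered gene model between Dmrta1 and Tusc1, had 14.9 and 9.64 RPKM in M1, against 11.4 and 14.6 RPKM in Py2T LT (-0.14 ± 0.20; limma, adjusted p = 0.577). Its level was between 9.64 and 16.3 RPKM in all 8 libraries, and whether reads shared with a copy elsewhere add to it was not tested. These neighbours were chosen after their values were seen. Of all 8 tested cyclin-dependent kinase inhibitors 3 rose and 4 fell; Cdkn3 had 14.2 and 11.7 RPKM in M1, against 4.21 and 4.34 RPKM in Py2T LT (1.46 ± 0.12), and Cdkn1c had no read in M1, against 1.14 and 1.21 RPKM in Py2T LT, at least 12.4-fold lower. Cdkn1a, which encodes p21, had 106 and 94.5 RPKM in M1, against 82.2 and 65.8 RPKM in Py2T LT (0.40 ± 0.12, adjusted p = 0.0192), a call lost without M1 replicate 1 (adjusted p = 0.0565) or Py2T LT replicate 2 (adjusted p = 0.164).

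Proliferation genes differed by small amounts. Of 39 tested, 18 rose, 9 fell and 12 did not pass, with a median of 0.31; without Py2T LT replicate 1 the number higher became 10. Tk1, thymidine kinase, had 120.1 and 90.1 RPKM in M1, against 57.7 and 53.7 RPKM in Py2T LT (0.86 ± 0.13, adjusted p = 0.00053), and Pcna, the sliding clamp of replication, had 84.1 and 88.6 RPKM in M1, against 53.3 and 49.6 RPKM in Py2T LT (0.71 ± 0.10). Ccnd1, cyclin D1, had 499 and 549 RPKM in M1, against 912 and 893 RPKM in Py2T LT (-0.82 ± 0.10), and Cdk1 had 106 and 83.1 RPKM in M1, against 149 and 169 RPKM in Py2T LT (-0.79 ± 0.13). Tk1 and Pcna were above Py2T LT in both M1 libraries, and Ccnd1 and Cdk1 were below it in both.

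Targets of p53 counted 12 rises and 9 falls of 27 tested, with a median of 0.34. Mdm2, which encodes the ubiquitin ligase of p53 and is itself a target, had 45.1 and 36.4 RPKM in M1, against 669.6 and 664 RPKM in Py2T LT, a difference of -4.06 ± 0.11 (limma, adjusted p = 1.86e-08). Perp, a desmosomal and apoptotic target, had 143 and 117 RPKM in M1, against 35.6 and 36.4 RPKM in Py2T LT (1.80 ± 0.11), Trp53inp1, a stress-induced partner of p53, had 15.4 and 19.1 RPKM in M1, against 3.56 and 4.95 RPKM in Py2T LT (1.87 ± 0.18), and Gadd45a had 5.86 and 3.95 RPKM in M1, against 46.1 and 41.7 RPKM in Py2T LT (-3.09 ± 0.18). Mdm2 did not stand alone on its chromosome. It lies in the longest run of neighbouring tested genes that all differed by 2 or more on the log2 scale in the same direction: 8 genes from Cpm to Dyrk2 on chromosome 10 (chr10:117629500-118889245, GRCm38), all lower in M1, by differences between -5.65 and -3.10. Nup107, a nuclear pore subunit, had 26.4 and 26.8 RPKM in M1, against 562 and 548 RPKM in Py2T LT, and Rap1b, a small GTPase, had 127 and 118 RPKM in M1, against 1595 and 1718 RPKM in Py2T LT. Slc35e3 had 5.65 and 5.77 RPKM in M1, against 111 and 116 RPKM in Py2T LT, and Dyrk2, a kinase, had 7.01 and 11.1 RPKM in M1, against 105 and 102 RPKM in Py2T LT. All 8 genes had both M1 libraries below both Py2T LT libraries, and 4933411E08Rik, without a read in M1, was at least 212-fold lower. 4933411E08Rik had no read in M2 or M3 either, and Cpm had at most 0.0933 RPKM in any clone library. For both genes the filter fixed the direction. Outside the run the differences were smaller, at -0.68 for Cpsf6 and -1.81 for Yeats4 on one side and -1.99 for Cand1 and -0.46 for Helb on the other. In the other clones Mdm2 had 54.2 and 51.8 RPKM in M2 and 48.8 and 48.9 RPKM in M3. Nup107 had 25.4 and 25.8 RPKM in M2 and 35.4 and 31.9 RPKM in M3.

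**Figure D3:**
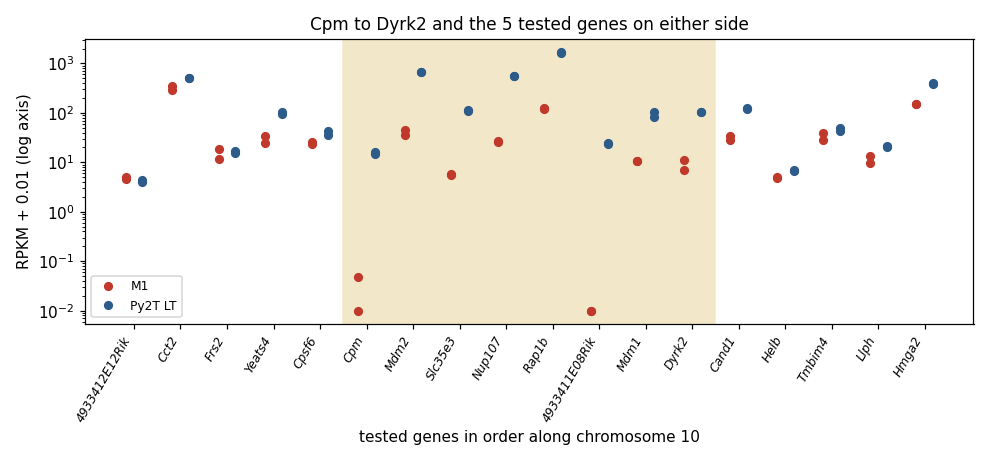
RPKM + 0.01 on a log axis for the tested genes in order along chromosome 10, M1 left of Py2T LT for each gene, 2 libraries each; the shaded genes form the run from Cpm to Dyrk2. Within the shading Py2T LT lies between 14.9 and 1718 RPKM, and for each gene both M1 libraries lie below both Py2T LT libraries; outside it the groups lie closer together.

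Stress response genes were lower in M1. In the list for the integrated stress response and protein folding stress, 21 of 30 tested genes fell and 3 rose, with a median of -0.81. Atf3, a transcription factor induced by cell stress, had 1.22 and 0.680 RPKM in M1, against 9.60 and 6.50 RPKM in Py2T LT (-2.59 ± 0.34, adjusted p = 0.000396). Mthfd2, a mitochondrial folate enzyme, had 31.1 and 29.0 RPKM in M1, against 158 and 97.6 RPKM in Py2T LT (-2.07 ± 0.24), and Nupr1, a stress-induced chromatin protein, had 47.1 and 29.7 RPKM in M1, against 155 and 128 RPKM in Py2T LT (-1.93 ± 0.26). The groups did not overlap for any of the 3. Vldlr, a lipoprotein receptor, was among the rises, with 3.44 and 3.10 RPKM in M1, against 0.119 and 0.0269 RPKM in Py2T LT (2.70 ± 0.21). The number of rises became 1 in place of 3 without M1 replicate 1, without Py2T LT replicate 2 or with the length trend removed.

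The promoters of Atf3, Nupr1 and Chac1 are shown because they hold the C/EBP-ATF response element through which Atf4 acts on its targets. Chac1, a glutathione-degrading enzyme, was added after its values were seen, for this match; it had 6.74 and 6.98 RPKM in M1, against 25.6 and 13.3 RPKM in Py2T LT (-1.40 ± 0.28). Each line gives the 250 bases before the start in the same table, 5′ to 3′ on the gene's strand, with TTGCATCA or its complement TGATGCAA in capitals; it overlaps no other motif searched for here.
Atf3 (chr1:191183334-191183583, minus strand): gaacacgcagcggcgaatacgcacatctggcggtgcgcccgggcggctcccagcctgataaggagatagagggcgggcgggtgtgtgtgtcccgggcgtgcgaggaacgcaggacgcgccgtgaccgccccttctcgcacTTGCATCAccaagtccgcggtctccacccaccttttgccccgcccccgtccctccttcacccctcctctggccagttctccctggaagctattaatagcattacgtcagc
Nupr1 (chr7:126625471-126625720, minus strand): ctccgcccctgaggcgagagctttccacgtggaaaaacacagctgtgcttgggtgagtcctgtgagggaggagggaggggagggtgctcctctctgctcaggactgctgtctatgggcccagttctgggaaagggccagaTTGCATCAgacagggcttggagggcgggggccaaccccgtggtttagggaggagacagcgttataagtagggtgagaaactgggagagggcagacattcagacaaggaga
Chac1 (chr2:119350992-119351241, plus strand): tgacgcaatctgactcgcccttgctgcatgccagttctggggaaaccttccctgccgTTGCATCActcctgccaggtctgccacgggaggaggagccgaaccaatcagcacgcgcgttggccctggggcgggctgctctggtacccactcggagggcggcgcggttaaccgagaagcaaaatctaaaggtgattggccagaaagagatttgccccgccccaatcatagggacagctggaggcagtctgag
The element occurs in 0.791% of the RefSeq promoters and in 0.617% of the tested genes with a promoter. Of the 29 list members with a promoter, 6 hold it: 4 fell in M1 (Atf3, Chac1, Nupr1 and Herpud1), 1 rose (Vldlr), and Slc7a11 did not pass. The list was picked for this stress response, so the share holding the element is no test of the list. Most of the list fell as well (21 of 30 tested). Whether the element bears on the direction was not tested.

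Of 24 tested cholesterol synthesis genes 16 fell, with 2 rises and a median of -0.47; without Py2T LT replicate 2 the number lower became 10, and the rises became 1 without M1 replicate 1 or either Py2T LT library. Cyp51, lanosterol demethylase, had 13.7 and 13.0 RPKM in M1, against 30.7 and 38.0 RPKM in Py2T LT (-1.36 ± 0.12, adjusted p = 2.06e-05). Dhcr7, which makes cholesterol from its last precursor, had 25.0 and 29.1 RPKM in M1, against 61.5 and 57.6 RPKM in Py2T LT (-1.16 ± 0.12). Insig1, which retains the activator of the pathway in the endoplasmic reticulum when sterols are plentiful, had 6.12 and 7.31 RPKM in M1, against 13.7 and 18.6 RPKM in Py2T LT (-1.23 ± 0.18).

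Antigen presentation had the highest median of the lists with tested members. Of 17 tested MHC class I and II presentation genes 13 rose and 1 fell, with a median of 1.97. Tap1 and Tap2, which together form the peptide transporter, rose: Tap1 had 2.20 and 2.35 RPKM in M1, against 0.0986 and 0.246 RPKM in Py2T LT (2.03 ± 0.16), and Tap2 had 8.03 and 6.24 RPKM in M1, against 0.748 and 0.718 RPKM in Py2T LT (2.59 ± 0.16, adjusted p = 1.81e-06). Psmb8, a subunit of the immunoproteasome, had 3.44 and 2.36 RPKM in M1, against 0.0951 and 0.137 RPKM in Py2T LT. Psmb9, another subunit, had 1.61 and 2.17 RPKM in M1, against 0 and 0.0693 RPKM in Py2T LT. With 0.155 and 0.301 RPKM in M2 and 0.887 and 0.828 RPKM in M3, Psmb9 passed the filter only through M1. Its rise, and so its place among the rises and in the run below, was built in by the filter. These 4 genes lie side by side on chromosome 17 (chr17:34182030-34216321, GRCm38) and form another run of neighbours that differ by 2 or more. H2-T23, a nonclassical class I gene, had 7.05 and 6.33 RPKM in M1, against 0.486 and 0.679 RPKM in Py2T LT (2.71 ± 0.14), and H2-D1, a classical one, had 34.1 and 26.6 RPKM in M1, against 40.5 and 43.2 RPKM in Py2T LT (-0.50 ± 0.12). Class I genes are near-identical copies, and how reads shared between them were counted is not given in the sources used here, so the values of single H2 genes are uncertain. Interferon-stimulated genes did not move as 1 group, with 9 of 20 higher and 5 lower (median 0.25). Bst2, tetherin, had 32.5 and 26.0 RPKM in M1, against 5.24 and 5.40 RPKM in Py2T LT (2.31 ± 0.15), and Oasl2 had 0.0197 and 0.0429 RPKM in M1, against 3.78 and 3.49 RPKM in Py2T LT (-2.98 ± 0.13).

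The chromatin genes named in the series title were compared between the same cells. Tet2, which oxidises 5-methylcytosine, had 1.23 and 2.28 RPKM in M1, against 1.42 and 1.52 RPKM in Py2T LT, a difference of 0.13 ± 0.21 that did not pass (limma, adjusted p = 0.618). With the gene length trend removed it was 0.38 and passed (adjusted p = 0.0343). The M1 libraries lay on either side of Py2T LT: the difference was 0.49 without M1 replicate 1 (adjusted p = 0.0246) and -0.23 without M1 replicate 2 (adjusted p = 0.219). Mbd3, a methyl-binding-domain subunit of NuRD, had 119 and 96.8 RPKM in M1, against 135 and 129 RPKM in Py2T LT (-0.33 ± 0.13, adjusted p = 0.0557). It did not pass here, but it did without M1 replicate 1 (-0.46, adjusted p = 0.0156), with RLE scaling (-0.35, adjusted p = 0.0422) and with the length trend removed (-0.53, adjusted p = 0.000787). Of 14 tested NuRD subunits 4 rose and 4 fell, a median of -0.12, and the number higher became 2 without either Py2T LT library. The shares of rises and falls among NuRD subunits were near the 30.7% and 30.2% of all tested genes. Hdac1 had 15.01 and 11.9 RPKM in M1, against 5.64 and 5.44 RPKM in Py2T LT (1.17 ± 0.12, adjusted p = 6.44e-05), while its paralogue Hdac2, in the same complex, had 89.7 and 77.6 RPKM in M1, against 114 and 136 RPKM in Py2T LT (-0.61 ± 0.12). Of 11 tested histone deacetylases 5 rose and 3 fell, with a median of 0.10, among them Hdac5 with 20.05 and 21.8 RPKM in M1, against 10.9 and 10.7 RPKM in Py2T LT (0.88 ± 0.11) and Sirt1 with 12.2 and 13.5 RPKM in M1, against 23.7 and 29.7 RPKM in Py2T LT (-1.06 ± 0.13). Of 15 tested DNA methylation enzymes and readers 3 rose and 4 fell; Dnmt3b, a de novo methyltransferase, had 1.83 and 1.83 RPKM in M1, against 0.861 and 0.762 RPKM in Py2T LT (0.81 ± 0.13), and Zbtb33, the methyl-CpG reader Kaiso, had 5.99 and 8.60 RPKM in M1, against 20.5 and 22.8 RPKM in Py2T LT (-1.56 ± 0.17). Without M1 replicate 2 the lower members became 7 in this list and 5 among the deacetylases, and without either Py2T LT library the higher members of the methylation list became 1.

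Where M1 differed from the other clones was asked next. Against the mean of M2 and M3, 1418 genes differed (12.1% of those tested), 755 higher and 663 lower in M1. Against M2 alone 2708 differed (23.1%), and against M3 alone 589 (5.03%). These counts moved with single libraries: without M1 replicate 2 they were 3959, 4497 and 3272, and at the other end they were as low as 503 against the mean without M2 replicate 2, 883 against M2 without the same library and 129 against M3 without M3 replicate 1. Genes that passed against Py2T LT, M2 and M3 in the same direction, with both M1 libraries beyond all 6 others, numbered 117 (0.999%), 58 higher and 59 lower in M1, and between 27 without M3 replicate 1 and 1340 without M1 replicate 2.

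Some of the 58 higher genes, such as Mir5620 at 0 in every library of M2, M3 and Py2T LT, reached 1 RPKM in 2 libraries only through M1. For those, being higher in M1 was built in by the filter. It was also so for Psmb9, named above, which reached 1 RPKM in M1 only. The higher genes named in this paragraph and the next reached 1 RPKM in other libraries too. Of the 117 genes, Nradd, a death-domain protein of neurotrophin receptor type, had 0.319 and 0.231 RPKM in M1. It had 8.23 and 7.60 RPKM in M2, 8.07 and 9.03 RPKM in M3, and 42.6 and 37.6 RPKM in Py2T LT. Its M1 level was below all other libraries by a difference of -3.44 ± 0.13 against M2 and -3.56 ± 0.13 against M3 (limma, adjusted p = 2.14e-06 and 1.01e-05). Ptgs2, which encodes the prostaglandin synthase COX-2, had 67.3 and 67.0 RPKM in M1, 187 and 232 RPKM in M2 and 130.4 and 142 RPKM in M3, and 614 and 575 RPKM in Py2T LT (-1.64 ± 0.12 against M2 and -1.04 ± 0.12 against M3). Porcn, the acyltransferase that Wnt ligands need for secretion, was higher in M1, with 11.4 and 10.1 RPKM, against 4.65 and 3.80 RPKM in M2 and 3.45 and 3.70 RPKM in M3 and 4.85 and 4.42 RPKM in Py2T LT (1.24 ± 0.13 against M2 and 1.44 ± 0.13 against M3). For these 3 genes the calls held with each library left out in turn.

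Other genes stood apart less firmly. Mmp3 had 59.8 and 41.8 RPKM in M1, 4.80 and 5.42 RPKM in M2 and 24.1 and 17.8 RPKM in M3, and 6.21 and 4.04 RPKM in Py2T LT. Its difference from M3 was 1.22 ± 0.23 (adjusted p = 0.0272) and was lost without M1 replicate 1 (adjusted p = 0.121), M3 replicate 1 (adjusted p = 0.0833) or M3 replicate 2 (adjusted p = 0.129). Igfbp7, a secreted binding protein of insulin-like growth factors, had 172 and 135 RPKM in M1, 53.1 and 48.2 RPKM in M2 and 58.6 and 74.6 RPKM in M3, and 11.6 and 14.3 RPKM in Py2T LT; its difference from M3 of 1.17 ± 0.16 was lost without M3 replicate 1 (adjusted p = 0.0688). Oaf had 173 and 149.6 RPKM in M1, 74.9 and 75.3 RPKM in M2 and 92.4 and 97.6 RPKM in M3, and 37.4 and 32.3 RPKM in Py2T LT. Dlk2, a membrane protein related to the Notch ligands, had 5.53 and 5.37 RPKM in M1, 1.60 and 1.93 RPKM in M2 and 2.74 and 3.02 RPKM in M3, and 0.260 and 0.178 RPKM in Py2T LT. Prodh, proline dehydrogenase, had 6.59 and 5.54 RPKM in M1, 2.93 and 2.47 RPKM in M2 and 2.86 and 3.58 RPKM in M3, and 3.21 and 3.06 RPKM in Py2T LT. These 3 genes and Dbn1 were higher in M1 than in each other library. On the lower side, Adarb1, an RNA-editing deaminase, had 6.47 and 9.05 RPKM in M1, 13.9 and 15.1 RPKM in M2 and 12.7 and 12.9 RPKM in M3, and 63.0 and 62.3 RPKM in Py2T LT. Fkbp14, a prolyl isomerase of the endoplasmic reticulum, had 1.43 and 1.14 RPKM in M1, 3.88 and 3.44 RPKM in M2 and 2.62 and 2.82 RPKM in M3, and 12.6 and 12.04 RPKM in Py2T LT. Nrep had 3.39 and 3.44 RPKM in M1, 6.88 and 7.10 RPKM in M2 and 12.8 and 17.96 RPKM in M3, and 30.8 and 51.2 RPKM in Py2T LT. Mfap3l, Tmprss11e and the small nucleolar RNA Snora2b were likewise below all other libraries, and Snord1a, another small nucleolar RNA, was above them. The calls of Snora2b, unlike those of the others in this paragraph, held with each library left out in turn. Of these 16 genes, the 8 highest and 8 lowest by their smallest difference, 12 lost a call against another clone when 1 library was left out.

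**Figure D4:**
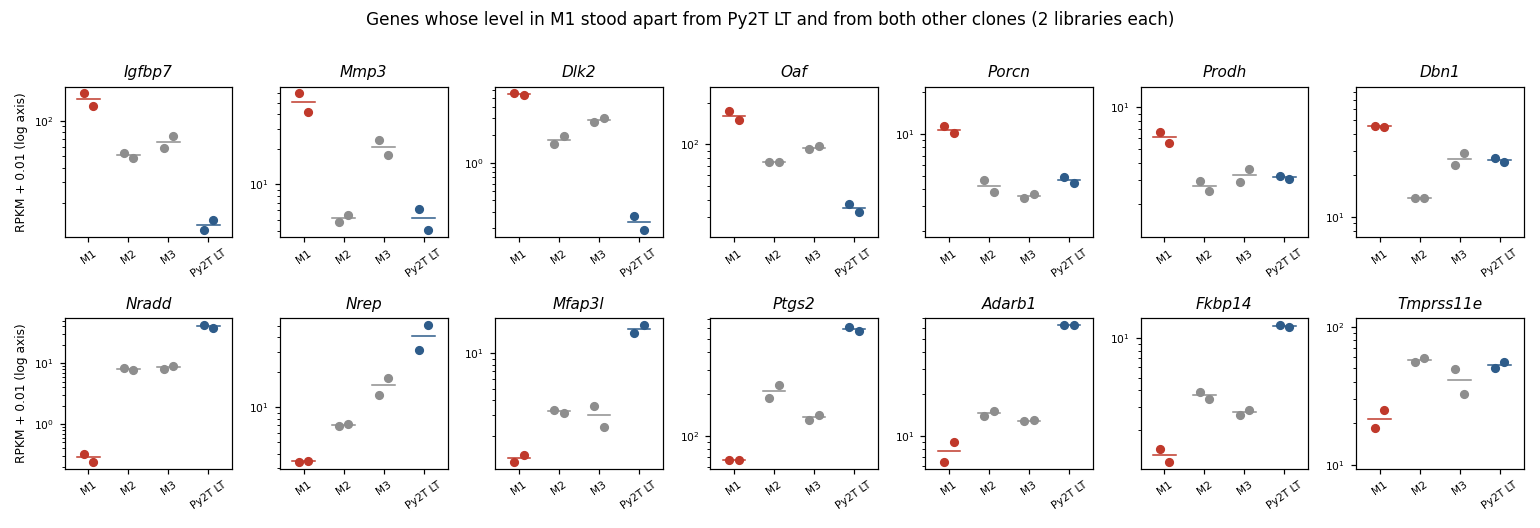
RPKM + 0.01 on log axes for 14 genes whose M1 level stood apart from M2, M3 and Py2T LT (the 2 small nucleolar RNAs are left out), higher in the upper row and lower in the lower row; points are libraries and lines are group means. Nradd is at 0.319 and 0.231 RPKM in M1 and above 7 RPKM in every other library.

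For Cldn6 M1 (178 and 173 RPKM) was above M2 (11.5 and 11.8 RPKM) by 3.84 ± 0.12 (limma, adjusted p = 9.38e-07), and against M3 (223 and 248 RPKM) the difference was -0.45 ± 0.12 (adjusted p = 0.0655). Twist2 was at 2.03 and 2.00 RPKM in M1, 0.0477 and 0.0462 RPKM in M2 and 1.93 and 2.50 RPKM in M3. Of 10 epithelial regulators 6 were lower and 0 higher in M1 than the mean of M2 and M3. Of all 11717 tested genes 663 were lower and 755 higher, and the counts of junction and TGF-beta target genes below stand against the same shares. Esrp1 was lower than M2 by a difference of -2.13 ± 0.16 (adjusted p = 8.31e-05), while its difference from M3, -0.67 ± 0.16, did not pass (adjusted p = 0.0534). Of 27 junction genes 2 were higher and 7 lower; the lower ones became 4 without M2 replicate 1, M3 replicate 1 or M3 replicate 2, and the higher ones 1 without M3 replicate 1 or either M2 library. Of 17 TGF-beta target genes 2 were higher and 0 lower, with 1 higher and 1 lower without M1 replicate 1 and 3 higher and 1 lower without M1 replicate 2. Psmb8 had 3.44 and 2.36 RPKM in M1, 0.154 and 0.248 RPKM in M2 and 2.20 and 2.36 RPKM in M3. It differed from M2 by 2.25 ± 0.17 (adjusted p = 8.18e-05), and its difference from M3, 0.25 ± 0.17, did not pass (adjusted p = 0.404). For Cdkn2a, Nes, Moxd1 and Tfpi2 M2 and M3 had under 0.1 RPKM in each library, as M1 did. These genes passed the filter only through Py2T LT, so being lower in M1 was built in.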

How the data were processed

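Total RNA of M1, Py2T LT, M2 and M3 (2 libraries each) was sequenced from TruSeq Stranded Total RNA libraries, per the labels' protocols. The deposited values were RPKM per gene, a unit read from the values, with STAR and mm10 named in the submitters' processing notes; how reads were counted is not given in the sources used here, so overlapping genes and near-identical copies are uncertain. The values cannot tell RPKM from FPKM. Of 19311 gene IDs 99.7% matched a symbol.

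RPKM were divided by TMM factors (0.982 to 1.02), and log2(RPKM + 0.5) was fitted with limma 3.58.1 (R 4.3.3; empirical Bayes with mean trend and robust settings) with group as the only term in all 8 libraries. Genes at 1 RPKM or more in 2 libraries were tested. The code of the fit was run on simulated data with fewer changed genes and no gene length trend, which does not vouch for the calls here. P-values are two-sided and rest on 1 spread per gene, pooled over the replicates of Py2T LT, M1, M2 and M3 and moderated across genes. The median replicate difference was 0.205 in M1, 0.110 in Py2T LT, 0.0833 in M2 and 0.133 in M3. The pooled spread can therefore understate that of M1. Depth was estimated from whole-number steps of low genes and GENCODE vM21 exon lengths, and a library at 0 allows 3 reads; both cover counting error only. Gene positions and promoters are RefSeq's (GRCm38.p6). Replicate numbers did not pair the libraries: the correlation of deviations was 0.0689 between M1 and Py2T LT. Tools were Python 3.11.15, pandas 2.3.3, numpy 2.4.6 and matplotlib 3.10.9.

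The comparison, the 34 gene lists and the rule for named genes were chosen with earlier results of these data known. Genes were named from a short list (Cdh1, Cdh2, Epcam, Vim, Fn1, Zeb1, Snai1, Twist1, Twist2, Cldn6, Cldn4, Cdkn2a, Cdkn2b, Mdm2, Nes, Serpinb2, Tet2, Mbd3). To these came the 12 largest rises and falls at 10 RPKM or more, up to 3 rises and 3 falls per list at 1 RPKM or more, the 8 highest and 8 lowest genes apart from all other groups at 5 RPKM or more, and runs of 4 or more neighbours differing by 2 or more. List members given only with their difference were chosen after their values were seen. The other 12 libraries of the series were not used here. Genes chosen by this rule were described only in part: the text does not go through all of them, and some are not reported here.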

Additional observations from a re-analysis of the deposited data

Results flagged for a closer look

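For 7 named genes the M1 effect and that of another clone, both against the same Py2T LT libraries, had opposite signs, and the test between the clones passed (limma, Benjamini-Hochberg over all tested genes). In 3 of them an epithelial gene was lower in M1: Cdh1 differed by -0.63 in M1 and by 1.19 in M2, a difference between the clones of -1.83 (adjusted p = 0.000536), and Esrp1 by -1.38 in M1 and 0.75 in M2, a difference of -2.13 (adjusted p = 8.31e-05). Grhl2 differed by -0.45 in M1 and by 0.57 in M3, a difference of -1.02 (adjusted p = 0.0101) that did not pass without M3 replicate 1 (adjusted p = 0.113) or M3 replicate 2 (adjusted p = 0.0563). The M1 minus Py2T LT calls of Cdh1 and Grhl2 are lost without single libraries, as given above. The differences between clones of the other 6 genes passed with each library left out in turn.

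In 3 further genes M1 was higher than M2. Itgb7 differed by 1.46 in M1 and by -1.68 in M2, a difference of 3.14 (adjusted p = 2.86e-05). Pdgfrb differed by 0.76 in M1 and by -0.99 in M2, a difference of 1.75 (adjusted p = 6.31e-05). Dbn1, an actin-binding protein, differed by 0.76 in M1 and by -0.90 in M2, a difference of 1.66 (adjusted p = 4.16e-05). Lpl, lipoprotein lipase, was lower in M1 than in M3: it differed by -0.77 in M1 and by 0.80 in M3, a difference of -1.57 (adjusted p = 0.000602), at levels of at most 1.34 RPKM in any library. Most of these genes did not separate M1 from the remaining clone. Against M3, Cdh1 (-0.50), Esrp1 (-0.67), Itgb7 (0.60) and Pdgfrb (-0.19) did not pass. Nor did Lpl against M2 (-0.28). Grhl2 against M2 (-0.86) and Dbn1 against M3 (0.74) passed, but both calls were lost when single libraries were left out.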

How the results depend on the processing

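The M1 minus Py2T LT count of 7129 moved by less than 1.5 times under every alternative run (other scaling, pseudocount, filter, variance model, samples in the fit, replicate block, length trend removed, each library left out), with 5743 to 7748 genes without 1 library. The counts between clones were less steady. With only the groups compared in the fit they were 1338 against M2, 158 against M3 and 837 against their mean, and with no filter 72 genes stood apart from all. Leaving out 1 library gave 883 to 4497 genes against M2, 129 to 3272 against M3, 503 to 3959 against their mean and 27 to 1340 apart from all. With the replicate block the counts were 7020, 2448, 480, 1214 and 88 in the order M1 minus Py2T LT, minus M2, minus M3, minus their mean, and apart from all; the numbers pair no libraries here (correlations 0.0689, 0.128 and -0.122 of M1 with Py2T LT, M2 and M3). The Tet2 difference was -0.23 without M1 replicate 2, where it changed sign, and 0.49 without M1 replicate 1. Results for single named genes were counted once per gene, comparison and alternative, so a gene counts many times. Of these results 3975 kept their outcome, whether passed or not, 125 lost a call, 7 gained one and 1 changed sign. Why they moved was not tested. With 2 libraries a group and 14874000 to 18193800 reads (estimated), levels under about 0.1 RPKM rest on a few reads.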

Other observations

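Immediate early genes were mostly lower in M1. Of 26 tested AP-1 and immediate early genes 16 fell and 5 rose in M1, with a median of -0.61. Egr3, a zinc finger factor induced by mitogens, had 2.55 and 3.37 RPKM in M1, against 15.6 and 14.8 RPKM in Py2T LT (-2.22 ± 0.18), and Maff, a small Maf factor, had 10.5 and 8.96 RPKM in M1, against 42.2 and 36.8 RPKM in Py2T LT (-2.0 ± 0.17). Dusp1, a phosphatase of MAP kinases, had 16.6 and 10.6 RPKM in M1, against 1.68 and 1.61 RPKM in Py2T LT (2.65 ± 0.25). Both M1 libraries were beyond both Py2T LT libraries for the 3 genes. Of 30 tested genes of glycolysis and the hypoxia response 14 rose and 9 fell, with a median of 0.34; without Py2T LT replicate 1 the number lower became 5. Pdk1, which holds pyruvate back from the mitochondria, had 5.42 and 5.21 RPKM in M1, against 0.606 and 0.647 RPKM in Py2T LT (2.34 ± 0.12), and Hk2, a hexokinase, had 11.5 and 16.8 RPKM in M1, against 34.7 and 28.6 RPKM in Py2T LT (-1.19 ± 0.18).

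Of 21 tested chemokines and cytokines 10 rose and 6 fell, with a median of 0.47. Cx3cl1, fractalkine, had 100.5 and 103 RPKM in M1, against 6.57 and 5.74 RPKM in Py2T LT (3.91 ± 0.09), and Csf2, which encodes GM-CSF, had 0.299 and 0.260 RPKM in M1, against 77.4 and 69.0 RPKM in Py2T LT (-6.58 ± 0.18). Ccl2, a monocyte chemokine, had 7.68 and 16.8 RPKM in M1, against 0.361 and 0.763 RPKM in Py2T LT (3.49 ± 0.51). Of 9 tested neuronal genes 6 fell and 3 rose, with a median of -1.76; without Py2T LT replicate 2 the number higher became 1. Uchl1, a ubiquitin hydrolase of neurons, had 0.108 and 0.117 RPKM in M1, against 87.1 and 101.3 RPKM in Py2T LT (-7.29 ± 0.14), and Map2, a microtubule protein of dendrites, had 7.77 and 9.60 RPKM in M1, against 1.58 and 1.56 RPKM in Py2T LT (2.11 ± 0.14).

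Among the largest rises outside the lists, Nqo1, a quinone reductase, had 76.0 and 62.0 RPKM in M1, against 0.712 and 1.15 RPKM in Py2T LT (5.58 ± 0.16), Mgp, matrix Gla protein, had 78.5 and 44.6 RPKM in M1, against 0.486 and 0.187 RPKM in Py2T LT (6.16 ± 0.30), and Sod3, extracellular superoxide dismutase, had 67.9 and 49.2 RPKM in M1, against 0.484 and 0.191 RPKM in Py2T LT (6.12 ± 0.20). Among the largest falls, Moxd1 had no read in M1, against 129.5 and 154 RPKM in Py2T LT, at least 2339-fold lower, and Thbd, thrombomodulin, had 0.0333 and 0.0181 RPKM in M1, against 65.8 and 59.5 RPKM in Py2T LT (-6.92 ± 0.13). Rpl26, a ribosomal protein with many processed copies, had 1.14 and 1.36 RPKM in M1, against 178 and 154 RPKM in Py2T LT (-6.60 ± 0.14), a value that shared reads make uncertain.

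Apart from the runs on chromosomes 10 and 17, there were 3 runs of 4 neighbouring tested genes that were all higher in M1 by 2 or more on the log2 scale. Ifi204, Mndal, Ifi211 and Ifi203, relatives in an interferon-inducible cluster on chromosome 1, rose by 2.38, 3.26, 2.08 and 3.68. Trim14, Coro2a, Tbc1d2 and Galnt12 on chromosome 4 rose by 2.08, 3.29, 2.69 and 2.79. Gimap9, Tmem176b, Tmem176a and Gpnmb on chromosome 6 rose by 2.16, 5.97, 5.79 and 3.31. The Ifi200 genes are near-identical in parts, so their values are uncertain.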
